A study of Mus musculus with 3 samples.

Results

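Vip interneurons, the cortical GABAergic neurons that make vasoactive intestinal peptide, were taken from single-nucleus RNA-seq of the mouse prefrontal cortex (PFC) by a gate on 7 genes. A nucleus was a member when it had at least 1 UMI (1 counted RNA molecule) of *Vip*, at least 1 UMI of *Gad1*, *Gad2* and *Slc32a1* together, at most 1 UMI of *Slc17a7*, at most 1 UMI of *Sst* and none of *Pvalb*. It also needed 200 genes or more, with mitochondrial counts under 10%. Chosen by these measured counts were 350 of 43464 nuclei, called Vip nuclei here. The 7 gate genes chose the members, so their levels are given as a description and support nothing.

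The series has 3 libraries, each the pooled PFC of male mice of 6 to 8 weeks. The C57BL/6J library came from 5 wild-type mice. The *Nav1* KO library came from 4 mice of the C57BL/6 strain in which part of *Nav1* was deleted at the end of exon 1. The BTBR library came from BTBR T+ Itpr3tf/J mice, and the number pooled was not given in the sources used here. *Nav1* was knocked out in all cells and not in interneurons alone, and nuclei were sorted by the neuronal protein NeuN before loading. With 1 library per group no test between strains or genotypes was possible, and every 95% interval covers counting error only.

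Vip interneurons arise in the caudal ganglionic eminence, share the RNA-editing-related gene *Adarb2* with other neurons from that source, and mostly inhibit other interneurons, so that their firing can release pyramidal cells from inhibition. They carry the ionotropic serotonin receptor Htr3a and are known to respond to serotonin, acetylcholine and noradrenaline. Sst and Pvalb interneurons instead arise in the medial ganglionic eminence under the transcription factors Lhx6 and Sox6.

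*Vip* (ENSMUSG00000019772) lies on chromosome 10 from 5639218 to 5647617 on the plus strand of mm10, and *Cck* (ENSMUSG00000032532), which encodes a second peptide of these neurons, on chromosome 9 from 121489824 to 121495694 on the minus strand. The 250 bases before each start (RefSeq, GRCm38.p6) are shown because both genes are known cAMP-responsive peptide genes and the results turn on their peptides. Capitals mark CGTCA or TGACG, the short core of the site bound by CREB, searched on both strands. The Vip window is chr10:5638968-5639217 on the plus strand and the Cck window chr9:121495695-121495944 on the minus strand, both printed 5′ to 3′.
Vip: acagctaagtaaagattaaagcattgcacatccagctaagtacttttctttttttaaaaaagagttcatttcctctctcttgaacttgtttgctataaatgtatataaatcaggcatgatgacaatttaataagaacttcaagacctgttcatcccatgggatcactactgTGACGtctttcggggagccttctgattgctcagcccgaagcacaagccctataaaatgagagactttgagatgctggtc
Cck: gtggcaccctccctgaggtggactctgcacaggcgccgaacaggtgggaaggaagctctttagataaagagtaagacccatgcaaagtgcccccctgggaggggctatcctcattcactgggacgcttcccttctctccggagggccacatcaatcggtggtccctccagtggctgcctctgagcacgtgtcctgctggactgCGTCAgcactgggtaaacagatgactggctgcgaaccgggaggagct
The first base of this core lies 79 bases before the start in *Vip* and 47 bases before it in *Cck*. The core was present in 6837 of 32851 promoter windows of 300 bases (20.8%), and the full palindrome TGACGTCA, in 588 (1.79%), was in neither window. A match describes letters only.

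The Vip nuclei were 95 of 14630 nuclei of the C57BL/6J library (0.649%, exact Clopper-Pearson interval 0.526 to 0.793), 87 of 14056 of the *Nav1* KO library (0.619%, 0.496 to 0.763) and 168 of 14778 of the BTBR library (1.14%, 0.972 to 1.32). The BTBR share of all nuclei was the highest and its interval did not overlap the others. Of the 4 interneuron classes described below, however, Vip nuclei made up 18.2% (15.0 to 21.7), 15.1% (12.3 to 18.3) and 20.2% (17.5 to 23.1), with overlapping intervals, and Sst nuclei (191, 155 and 222) and Adarb2 nuclei (190, 290 and 384) were also most numerous in BTBR. With 2 or more *Vip* UMIs the shares of the classes were 11.0% (8.36 to 14.2), 9.93% (7.55 to 12.8) and 12.6% (10.3 to 15.2). Nuclei were also thinned at random to 1000 UMIs, with 2394, 1249 and 2096 shallower nuclei left out, 5, 6 and 21 members among them. The shares of all nuclei were then 0.441% (0.332 to 0.575), 0.406% (0.303 to 0.532) and 0.702% (0.564 to 0.863). Here the BTBR interval overlapped that of C57BL/6J. At 500 UMIs, where no nucleus was left out, the shares were 0.178% (0.116 to 0.260), 0.221% (0.150 to 0.313) and 0.365% (0.275 to 0.477). BTBR stayed highest, but its interval overlapped that of *Nav1* KO, and the other 2 libraries changed places. These shares also depend on the dissection and the NeuN sort, and pooled mice cannot be separated. Median depth of the Vip nuclei was 2022, 2301 and 2050 UMIs and 1120, 1302 and 1178 genes, and their counts summed to 230570, 257149 and 473382. No barcode was shared between libraries among them.

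The gate genes describe the members. In the order C57BL/6J, *Nav1* KO and BTBR, *Vip* stood at 4229, 4795 and 2632 CPM (CPM being counts of the gene over all counts of those nuclei, scaled to a common total). *Gad1*, which makes GABA, was at 278, 397 and 429 CPM in the same order, and its relative *Gad2* at 252, 206 and 203 CPM. *Slc32a1*, the vesicular GABA transporter, was at 269, 327 and 260 CPM. At the edge of the rule, 51, 32 and 65 members had a single GABA gene UMI, and 184, 80 and 193 nuclei that met the rest of the rule had *Vip* but none. Members with 1 *Slc17a7* UMI numbered 23, 18 and 39, against 16, 18 and 29 nuclei just outside with 2. Members with 1 *Sst* UMI numbered 7, 3 and 14, against 0, 1 and 5 just outside with 2. A single *Pvalb* UMI kept out 0, 0 and 2 nuclei.

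The label held better for members with several *Vip* UMIs than for those with 1. Of the members, 42, 33 and 72 had exactly 1 *Vip* UMI. Among nuclei that met the rest of the rule, exactly 1 *Vip* UMI was found in 2.14% (1.55 to 2.88), 1.66% (1.15 to 2.33) and 3.05% (2.39 to 3.82) of the 3 libraries in that order, at median depths of 1858, 2256.5 and 1999 UMIs. Excitatory nuclei (*Slc17a7* at least 2, no GABA gene UMI), which should lack the gene, had 1.87% (1.49 to 2.31), 1.76% (1.42 to 2.15) and 2.93% (2.48 to 3.43) at median depths of 2960, 3740.5 and 3226. The intervals overlapped in each library, but the excitatory nuclei were deeper. Thinned to 1000 UMIs, a step added after seeing the data that left out shallower nuclei, single UMIs remained in 1.06% (0.631 to 1.68), 0.622% (0.311 to 1.11) and 1.28% (0.841 to 1.88) of the gated nuclei and in 0.572% (0.371 to 0.844), 0.501% (0.327 to 0.733) and 1.05% (0.783 to 1.37) of the excitatory nuclei. The gated share was then the higher in each library, with intervals that still overlapped. With 2 or more UMIs, without thinning, the shares were 2.70%, 2.72% and 4.06%, against 0.223%, 0.229% and 0.452% in excitatory nuclei.

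**Figure D1:**
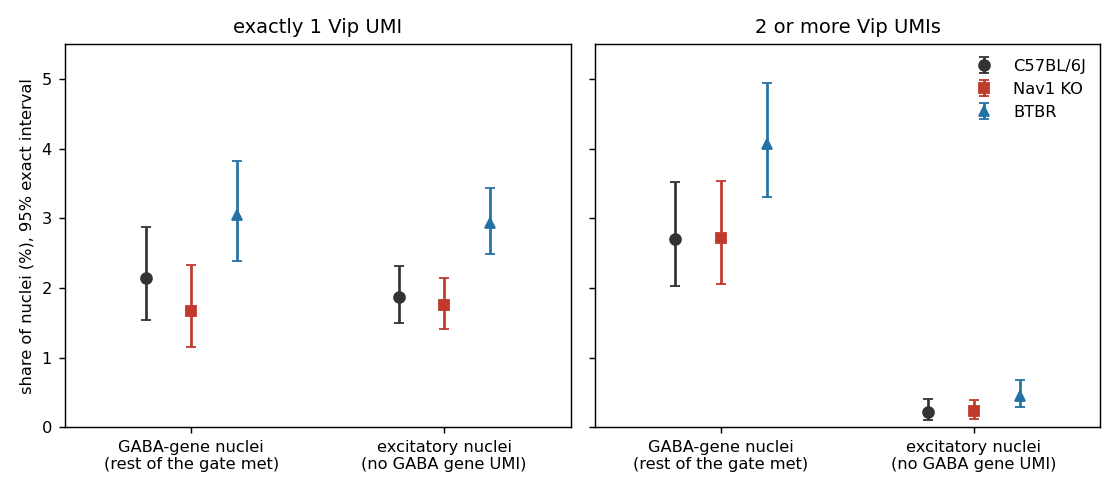
Share of nuclei (%, y axis, with exact 95% intervals) holding exactly 1 (left) or 2 or more (right) *Vip* UMIs, in nuclei that met the rest of the gate and in excitatory nuclei, by library. With 1 UMI both kinds of nuclei sit between 1.66% and 3.05% at unequal depths, and with 2 or more the gated nuclei sit at 2.70% to 4.06% and the excitatory nuclei under 0.5%.

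The genes that were not part of the rule separated these members in the same way. *Adarb2* was found in 45.2%, 27.3% and 38.9% of the 1-UMI members and in 90.6%, 74.1% and 95.8% of those with 2 or more. Nuclei that met the rest of the rule but held no *Vip* had it in 18.7%, 28.4% and 30.6%. The intervals of the 1-UMI members in *Nav1* KO (13.3 to 45.5) and BTBR (27.6 to 51.1) held that share, and the one in C57BL/6J (29.8 to 61.3) did not. The *Adarb2* level was 785, 419 and 1182 CPM in 1-UMI members against 2322, 2192 and 2416 CPM in the others. *Tac2*, the neurokinin B precursor, was at 9.3, 22.1 and 119 CPM in 1-UMI members and at 1117, 1123 and 913 CPM in the others. *Crh*, corticotropin-releasing hormone, was at 28, 0 and 37.8 CPM against 591, 745 and 212 CPM. In each library both peptide genes were thus far lower where *Vip* was at 1 UMI. *Prox1*, the transcription factor of neurons from the caudal eminence, was at 46.7, 0 and 64.7 CPM against 121, 126 and 104 CPM, and *Htr3a* at 18.7, 0 and 27 CPM against 72.8, 186 and 104 CPM. *Meis2*, a transcription factor known from olfactory bulb and striatal neurons, went the other way, with 664, 1070 and 863 CPM in 1-UMI members and 388, 396 and 472 CPM in the others. *Ntng1*, a netrin-like adhesion gene, was at 103, 629 and 189 CPM against 64.7, 84.1 and 86.8 CPM. All members were kept, as the rule has it, and the class comparisons were repeated for members with 2 or more *Vip* UMIs.

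**Figure D2:**
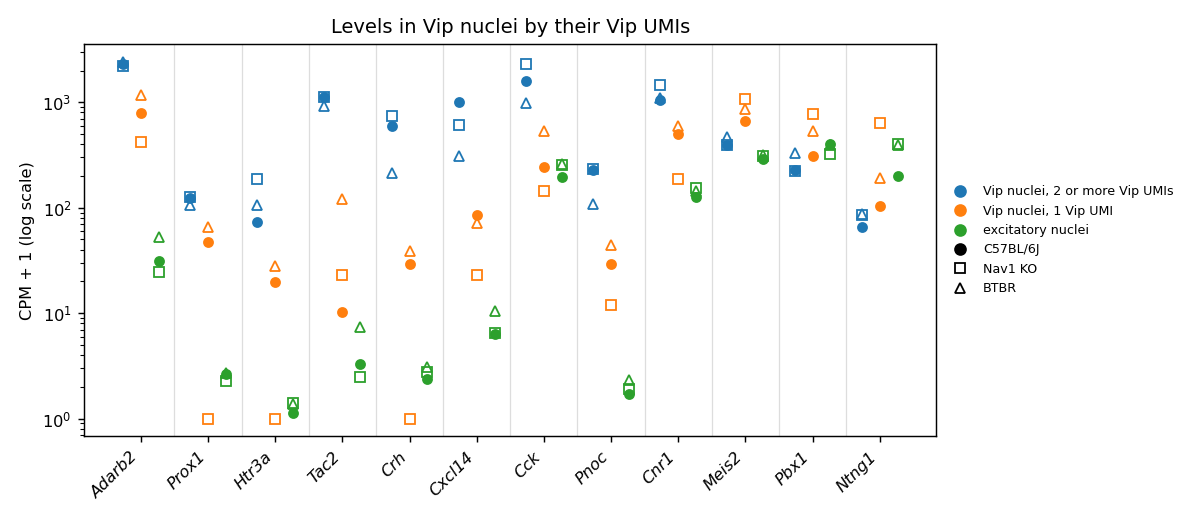
Level of 12 genes (CPM + 1, log scale) in Vip nuclei with 2 or more *Vip* UMIs, Vip nuclei with 1, and excitatory nuclei, with 1 marker per library. *Adarb2*, *Tac2*, *Crh* and *Cck* are higher with 2 or more UMIs in all 3 libraries, while *Meis2* is higher with 1, for example 1070 against 396 CPM in *Nav1* KO.

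Genes of Vip nuclei were compared with those of 3 other interneuron classes cut from the same libraries. Sst nuclei (568; at least 2 *Sst* UMIs), Pvalb nuclei (151; at least 1 *Pvalb* UMI) and Adarb2 nuclei (864; at least 2 *Adarb2* UMIs) met the same limits on GABA genes and *Slc17a7* and held no *Vip*. Counts were summed per library and class and tested with edgeR's quasi-likelihood test with the library as a block, so that n = 3 sums per class, and p-values were adjusted over all genes tested (Benjamini-Hochberg). The 3 comparisons share the Vip sums. Nuclei of a class came from the same pools as the Vip nuclei, and the sums differ in strain, so the p-values measure whether a class difference recurs across these 3 pools.

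Vip nuclei were first compared with Sst nuclei, the other large peptide class. Of 8798 genes, 284 were higher (3.23%) and 290 lower (3.3%) in Vip nuclei. Genes of the caudal ganglionic eminence stood higher, with 8 of 10 tested higher and none lower and a median log2 fold change of 1.61, beside -0.00 over all genes tested. *Adarb2* was at 1609, 1567 and 1933 CPM in Vip nuclei of C57BL/6J, *Nav1* KO and BTBR and at 77.6, 49.4 and 140 CPM in Sst nuclei, without overlap (log2 fold change 4.27 ± 0.15 SE, adjusted p = 4.66e-35). *Prox1* was at 86.7, 81.7 and 88.7 CPM against 5.17, 5.70 and 4.13 CPM (4.12 ± 0.39, adjusted p = 1.49e-13). *Htr3a* had 77 counts in Vip nuclei and 3 in Sst nuclei, a ratio of CPM of 49.0 (16.1 to 243). *Nr2f2*, a nuclear receptor of that lineage, rose less, by 1.25 ± 0.26. Of the Vip interneuron markers 9 of 12 tested were higher and none lower, with a median of 2.52. *Calb2* was not among them, at 21.7, 27.2 and 27.5 CPM in Vip nuclei (0.52 ± 0.44, adjusted p = 0.641).

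Genes of the medial ganglionic eminence stood lower in Vip nuclei, with 6 of 9 lower and 1 higher (*Etv1*, 1.01 ± 0.24), beside 3.3% and 3.23% of all genes. Their median was -1.89. *Lhx6* had 3 counts in Vip nuclei, all in BTBR, against 121 in Sst nuclei, a level 21.1-fold lower (7.06 to 104). *Sox6* was at 4.34, 19.4 and 25.3 CPM against 138, 142 and 154 CPM (-2.93 ± 0.31), and *Satb1*, which matures these neurons, at 43.4, 23.3 and 25.3 CPM against 248, 279 and 252 CPM (-3.10 ± 0.24). All 8 Sst interneuron genes tested were lower in Vip nuclei, with a median of -2.69. *Crhbp*, which binds CRH, was at 0, 15.6 and 12.7 CPM against 308, 323 and 315 CPM (-4.86 ± 0.30). *Grin3a*, an NMDA receptor subunit, changed by -3.40 ± 0.23, *Nos1* by -3.60 ± 0.36, *Calb1* by -2.90 ± 0.30 and *Rbp4* by -3.86 ± 0.24. *Lypd6b* had no count in Vip nuclei and 105 in Sst nuclei, at least 18.3-fold lower with a floor of 3 counts over the class.

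Peptide genes moved both ways against Sst nuclei, 6 of 16 tested being higher and 4 lower, beside 3.23% and 3.3% of all genes. *Cck* was at 967, 1556 and 807 CPM in Vip nuclei against 93.1, 103 and 133 CPM (3.33 ± 0.20, adjusted p = 5.59e-22). *Crh* was at 330, 482 and 144 CPM against 15.5, 30.4 and 15.1 CPM (3.92 ± 0.24), and *Tac2* at 603, 735 and 602 CPM against 19.0, 20.9 and 96.3 CPM (3.79 ± 0.22). No library of Sst nuclei reached the lowest Vip value of either gene. *Pthlh*, parathyroid hormone-like hormone, had 40 counts against 4 (4.17 ± 0.65), while *Pnoc*, which yields nociceptin, rose by 1.85 ± 0.26 and *Penk*, which yields enkephalins, by 1.24 ± 0.19. *Npy* was lower, at 594, 315 and 192 CPM against 2141, 1815 and 1756 CPM (-2.49 ± 0.16), as were *Pdyn* (-3.29 ± 0.46) and *Vgf* (-0.55 ± 0.14). *Cxcl14*, a chemokine, had a log2 fold change of 4.63 ± 0.26.

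Receptors for modulators were higher in Vip than in Sst nuclei for 6 of 19 tested and lower for none, beside 3.23% and 3.3% of all genes. *Adra1b*, the alpha-1B noradrenaline receptor, was at 121, 117 and 144 CPM against 13.8, 22.8 and 13.8 CPM (2.97 ± 0.27). *Cnr1*, the cannabinoid receptor, was at 794, 999 and 896 CPM against 227, 215 and 265 CPM (1.96 ± 0.15). *Npy1r* rose by 2.06 ± 0.28 and *Htr2c* by 1.71 ± 0.25. *Vipr1*, a receptor for VIP itself, was higher (1.41 ± 0.38, adjusted p = 0.0116), but not without C57BL/6J (0.80, adjusted p = 0.454). Glutamate receptor genes were lower for 7 of 18 and higher for 1, led beside *Grin3a* by *Grik1* (-2.33 ± 0.21) and *Gria1* (-1.17 ± 0.13). *Grin2a* was lower too (-0.68 ± 0.13), with an adjusted p of 0.106 without BTBR. Of ion channels 4 of 22 were higher and 3 lower. *Kcnt2* rose by 1.82 ± 0.24 and *Kcnc2*, a fast potassium channel, changed by -1.16 ± 0.21. Of adhesion and guidance genes 6 of 29 were higher, among them *Erbb4* (1.01 ± 0.17), the neuregulin receptor, and *Rgs12* (3.41 ± 0.28), and 5 lower. *Nrxn3* rose by 0.36 ± 0.11, with an adjusted p of 0.372 without BTBR. The acid-sensing channel gene *Asic4* (4.34 ± 0.45), the synapse organiser *Cbln2* (3.51 ± 0.32) and the receptor kinase gene *Kit* (3.44 ± 0.25) were among the 10 largest rises.

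**Figure D3:**
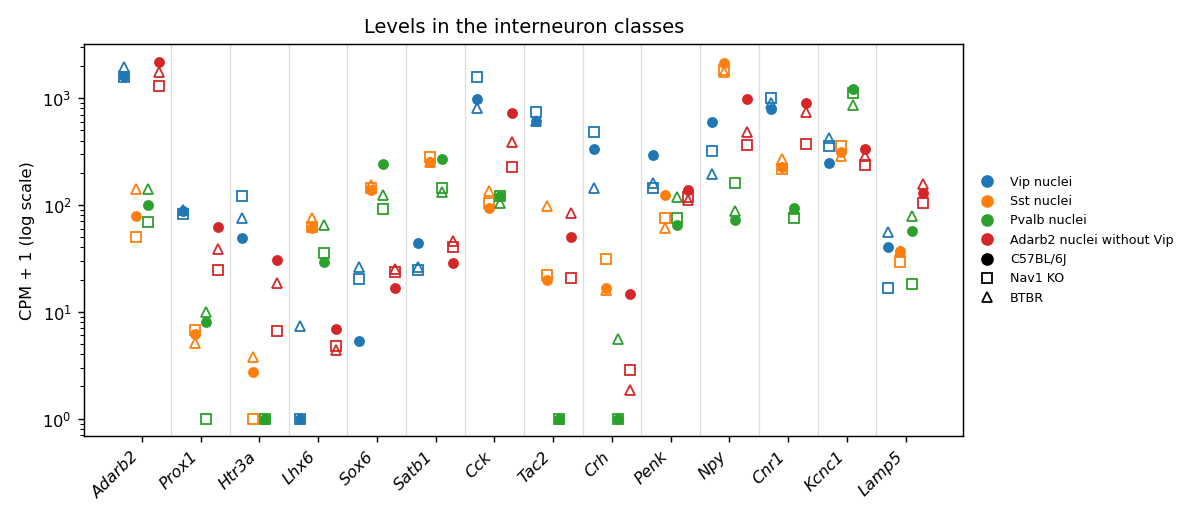
Level of 14 genes (CPM + 1, log scale) in Vip, Sst, Pvalb and Adarb2 nuclei, with 1 marker per library. *Tac2* and *Crh* are highest in Vip nuclei in every library, *Lhx6* and *Sox6* are highest in Sst or Pvalb nuclei, and *Npy* is highest in Sst nuclei at 1756 to 2141 CPM.

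Against Pvalb nuclei, the fast-spiking class, 344 of 8798 genes were higher (3.91%) and 299 lower (3.4%) in Vip nuclei. Of the caudal eminence genes 9 of 10 were higher with a median of 3.63, beside 0.01 over all genes, and of the Vip markers 11 of 12 with a median of 4.09. *Tac2* had 613 counts in Vip nuclei and none in Pvalb nuclei, at least 114-fold higher. *Htr3a* had 77 and none, with a lower limit of 11.4. *Crh* had 268 counts against 1, a ratio of 150 (26.7 to 5941). *Npas1*, a transcription factor of this lineage, had 109 counts against 3 (20.3, 6.77 to 100). *Adarb2* had a log2 fold change of 4.02 ± 0.19 and *Cck* of 3.25 ± 0.26. Of the peptide genes 9 of 16 were higher and 1 lower. *Npy* was higher here (1.61 ± 0.26), at 70.7, 160 and 86.0 CPM in Pvalb nuclei, and *Pnoc* rose by 3.91 ± 0.52. *Penk* (1.07 ± 0.25) did not pass without C57BL/6J (0.63, adjusted p = 0.25). *Tac1* was lower (-1.19 ± 0.28), but not without *Nav1* KO (-0.48, adjusted p = 0.477). *Calb2* had 25 counts against 2 (6.99, 1.74 to 60.9) and *Pthlh* a log2 fold change of 2.20 ± 0.69. Both passed, and both lost the call whichever library was left out, with adjusted p-values of 0.123 to 0.216 and of 0.0521 to 0.23.

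Of ion channels 8 of 22 were lower than in Pvalb nuclei and 6 higher, beside 3.4% and 3.91% of all genes. *Kcnc1*, the Kv3.1 channel of fast-spiking cells, was at 247, 354 and 418 CPM against 1223, 1103 and 851 CPM (-1.59 ± 0.15, adjusted p = 2.13e-13). *Kcnc2* changed by -1.68 ± 0.23, *Kcna1* by -1.29 ± 0.16 and *Scn1a* by -0.92 ± 0.15, the last without its call when Pvalb nuclei needed 2 UMIs (-0.78, adjusted p = 0.0712). *Scn8a* changed by -0.70 ± 0.17 but did not pass without BTBR (adjusted p = 0.0858) or *Nav1* KO (0.181), and was at 0.24 when Pvalb nuclei needed 2 UMIs. *Syt2*, the synaptotagmin of fast synapses, was at 4.34, 7.78 and 16.9 CPM against 127, 131 and 95.05 CPM (-3.35 ± 0.44). Medial eminence genes were lower for 7 of 9 and higher for 2, with *Sox6* at -2.96 ± 0.36 and *Satb1* at -2.56 ± 0.31. Of the Pvalb interneuron genes 4 of 6 were lower and 1 higher. The hyaluronan-binding gene *Cemip* (-3.04 ± 0.27), the actin-binding gene *Coro6* (-2.83 ± 0.22) and the guidance gene *Slit2* (-2.69 ± 0.33) were among the 10 largest falls. Receptor genes were higher for 5 of 19 and lower for 1, with *Cnr1* at 3.39 ± 0.22 and *Adra1b* at 3.27 ± 0.41. *Igf1*, a growth factor, was at 217, 191 and 131 CPM against 0, 17.1 and 9.05 CPM (4.16 ± 0.44). Glutamate receptor genes were higher for 4 of 18 and lower for 5, *Grin2a* (-0.48 ± 0.15) among the latter, without its call when any library was left out (-0.34 to -0.59). Adhesion genes were higher for 7 of 29 and lower for 8. *Nav1*, the targeted gene, was among the lower ones (-0.66 ± 0.17), at 317, 284 and 146 CPM in Vip nuclei and 573, 463 and 172 CPM in Pvalb nuclei, with adjusted p = 0.151 without C57BL/6J and 0.0547 without *Nav1* KO.

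Adarb2 nuclei without *Vip* were compared last. *Adarb2* was required by their gate, so its level there is no result, and 28, 38 and 48 Vip nuclei held none. Fewer genes differed, with 119 of 8797 higher (1.35%) and 47 lower (0.534%) in Vip nuclei. Of the peptide genes 10 of 16 were higher and 1 lower, with a median of 0.72 beside -0.01 over all genes. *Crh* was at 13.7, 1.87 and 0.838 CPM in Adarb2 nuclei (6.29 ± 0.30, adjusted p = 8.52e-28) and *Tac2* at 49.1, 19.7 and 82.2 CPM (3.74 ± 0.21), both below every Vip library. *Pthlh* rose by 4.26 ± 0.59, *Pnoc* by 1.86 ± 0.25 and *Cck* by 1.43 ± 0.17, and *Vgf*, a secreted granule protein, by 1.11 ± 0.15. Under DESeq2 *Cck* did not pass (1.40, adjusted p = 0.161), nor did *Cxcl14* (2.11, 0.0786). *Penk* (0.67 ± 0.17), *Scg2* (0.62 ± 0.14), *Chga* (0.77 ± 0.18) and *Chgb* (0.60 ± 0.16) also passed, but each lost the call when 1 library was left out. Without BTBR the adjusted p was 0.171 for *Penk*, 0.319 for *Chga* and 0.513 for *Chgb*, and without *Nav1* KO 0.194 for *Scg2* and 0.118 for *Chga*. Without C57BL/6J it was 0.409 for *Penk* and 0.0865 for *Chgb*.

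Of the Vip markers 6 of 11 tested were higher and none lower, and of the caudal eminence genes 3 of 9, beside 1.35% and 0.534% of all genes. *Prox1*, among both, was at 60.8, 23.4 and 37.7 CPM in Adarb2 nuclei (1.19 ± 0.24), with adjusted p = 0.182 without BTBR. Receptor genes were higher for 5 of 19 and lower for 1. *Htr3a* was at 29.4, 5.62 and 17.6 CPM in Adarb2 nuclei (2.38 ± 0.35), *Adra1b* at 13.7, 20.6 and 30.2 CPM (2.49 ± 0.23), and *Htr2c* changed by 1.25 ± 0.23. *Cnr1* passed (0.51 ± 0.14, adjusted p = 0.0253), though not without BTBR (0.244) or *Nav1* KO (0.928), and *Npy1r* (1.03 ± 0.23) not without BTBR (0.377). *Vipr2*, the other VIP receptor, was the lower one (-1.27 ± 0.37), with adjusted p = 0.639 without BTBR and 0.0873 without C57BL/6J. Of the Lamp5 and Sncg interneuron genes 4 of 9 were lower and 1 higher, with a median of -0.84. *Lamp5* was at 39.0, 15.6 and 54.9 CPM against 130, 104 and 154 CPM (-1.74 ± 0.24). *Ndnf* (-1.85 ± 0.30) and *Reln* (-1.66 ± 0.25) lost their calls without BTBR, with adjusted p = 0.085 and 0.077. *Npy* (-0.73 ± 0.16) lost its call without BTBR (0.56) and when Vip nuclei needed 2 *Vip* UMIs (0.378). Olfactory bulb interneuron genes were lower for 4 of 10 and higher for 1. *Meis2* was at 516, 634 and 625 CPM against 571, 1651 and 968 CPM (-0.77 ± 0.14), without the call when *Nav1* KO was left out (0.121). *Tshz1* changed by -1.46 ± 0.23. *Synpr*, a synaptic vesicle gene of that list, was higher (1.65 ± 0.14). *Elfn1*, a synaptic adhesion gene and the only 1 of 9 medial eminence genes to differ, rose by 2.04 ± 0.32.

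**Figure D4:**
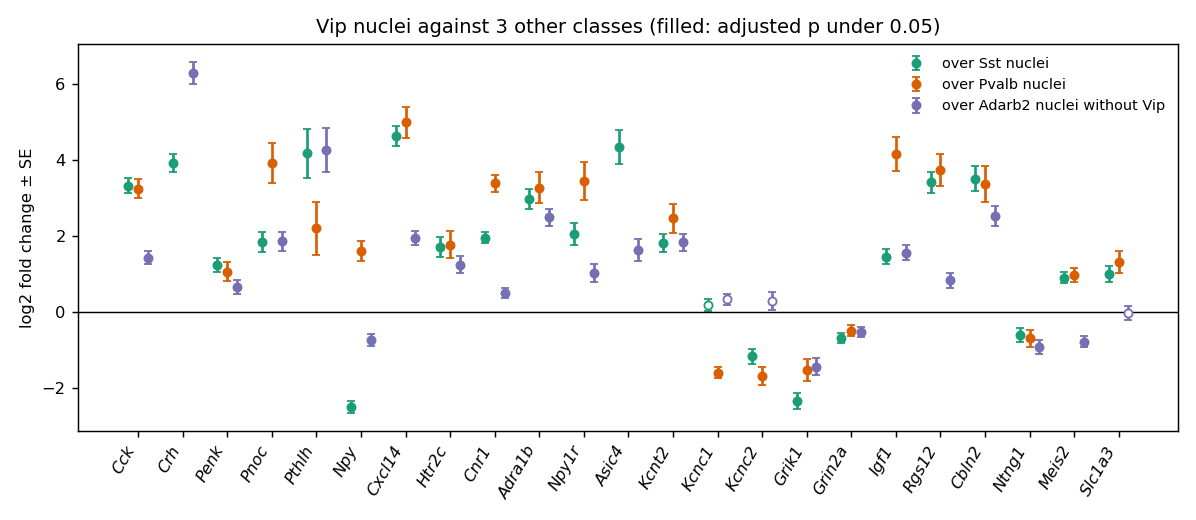
Log2 fold change (± SE, edgeR) of 23 genes in Vip nuclei over Sst, Pvalb and Adarb2 nuclei, with filled points for an adjusted p under 0.05 and no point where a class had 3 counts or fewer. *Cck* and *Cxcl14* lie above 0 in all 3 comparisons, and *Npy* lies at -2.49 against Sst and at 1.61 against Pvalb nuclei.

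Members with 2 or more *Vip* UMIs gave larger differences for some genes and smaller ones for others. Against Sst nuclei *Crh* stood at 4.63, *Tac2* at 4.51, *Cxcl14* at 5.32 and *Adarb2* at 4.73, and against Adarb2 nuclei *Crh* stood at 6.95 and *Lamp5* at -3.41. Smaller than with all members were the falls of *Rbp4* (-3.27) and *Sox6* (-2.76) against Sst nuclei, of *Sox6* against Pvalb nuclei (-2.80) and of *Grik1* against Adarb2 nuclei (-1.14). The rises of *Meis2* over Sst nuclei (0.91 ± 0.15) and over Pvalb nuclei (0.98 ± 0.18) did not pass there (0.41, adjusted p = 0.227, and 0.48, adjusted p = 0.159). Against Adarb2 nuclei 248 of 7815 genes were then higher and 112 lower.

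Marker lists of other cells were read beside these results. Over all genes, 3.23% were higher and 3.3% lower than in Sst nuclei, and 3.91% and 3.4% than in Pvalb nuclei. Astrocyte genes were higher in Vip than in Sst nuclei for 3 of 4 tested, with a median of 1.03, and higher than in Pvalb nuclei for 2 of 4. Their summed level was 542, 863 and 699 CPM in Vip nuclei, 400, 319 and 330 CPM in Sst nuclei and 339, 314 and 267 CPM in Pvalb nuclei. *Slc1a2*, a glutamate transporter, rose by 1.01 ± 0.15 over Sst nuclei. *Slc1a3* rose by 1.01 ± 0.21 (adjusted p = 0.101 without BTBR) and *Gja1* by 1.04 ± 0.30 (0.356 without BTBR, 0.124 without *Nav1* KO, 0.265 with 2 *Vip* UMIs). Over Pvalb nuclei *Slc1a3* rose by 1.33 ± 0.29, with 0.0746 without BTBR. The summed bulb list, of which 4 of 10 genes were higher than in Sst and 8 of 10 higher than in Pvalb nuclei and 1 lower in each, was 1700, 2454 and 2345 CPM in Vip nuclei and 1077, 1396 and 1447 CPM in Sst nuclei. Of the excitatory list 2 of 5 genes were higher than in Sst nuclei, with *Camk2a* (0.48 ± 0.15) at adjusted p = 0.312 when Vip nuclei needed 2 *Vip* UMIs and without its call when any library was left out (0.46 to 0.51). The part of such nuclei or of free RNA in the class differences was not tested. No oligodendrocyte, precursor or microglia gene passed in any of the 3 comparisons, of 3, 2 and 1 tested, and of 1 endothelial or mural gene tested *Vtn* passed, over Pvalb nuclei.

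Against Adarb2 nuclei, where 1.35% of all genes were higher and 0.534% lower, 1 of 22 channel, 3 of 29 adhesion and 0 of 18 glutamate receptor genes were higher and 1, 2 and 2 lower. *Kcnt2*, a sodium-activated potassium channel, was the higher channel (1.84 ± 0.23, adjusted p = 2.13e-08), and *Grik1*, a kainate receptor subunit, was lower (-1.44 ± 0.22, adjusted p = 4.9e-06). *Ntng1* (-0.91 ± 0.18) was lower there, with adjusted p = 0.315 without BTBR and 0.0555 without C57BL/6J. *Rgs12* (0.84 ± 0.19) was higher, with 0.462 without BTBR, and *Grin2a* (-0.52 ± 0.13) lower, with 0.446 without BTBR and 0.162 without *Nav1* KO. For the other 2 classes the shares of all genes higher and lower were 3.23% and 3.3% against Sst and 3.91% and 3.4% against Pvalb nuclei. Of the GABA synthesis, transport and shared interneuron genes 4 of 17 were higher and 1 lower than in Sst nuclei. Of the same genes 2 were higher and 3 lower than in Pvalb nuclei, and 1 higher and 1 lower than in Adarb2 nuclei. *Dlx1* was among the higher ones against Sst nuclei (0.71 ± 0.22), with adjusted p = 0.819 without BTBR. Of 9 activity-regulated genes 1 was higher and 1 lower than in Sst nuclei, and 2 were higher than in Pvalb and in Adarb2 nuclei. In each comparison 7 did not pass. *Igf1* was higher against each class, by 1.46 ± 0.21, 4.16 ± 0.44 and 1.57 ± 0.20. *Vgf* was lower against Sst nuclei and higher against the other 2 classes. Striatal genes were higher for 2 of 8 against Sst nuclei, for 1 with 1 lower against Pvalb nuclei, and for 1 with 1 lower, *Foxp2* (-1.38 ± 0.20), against Adarb2 nuclei. Vip subtype genes were higher for 7, 8 and 7 of 15 and lower for 3, 0 and 1 against Sst, Pvalb and Adarb2 nuclei.

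Within Vip nuclei the *Calb2* and *Cck* groups known from cortex were thin. Nuclei with *Calb2* and no *Cck* numbered 2, 5 and 8, and nuclei with *Cck* and no *Calb2* 28, 36 and 64. Of 666 genes tested 1 was higher (0.15%) and 0 lower (0%), while 29 had an unadjusted p under 0.05 and DESeq2 called 1 and 0. The 1 gene was *Fbln2*, an extracellular matrix gene (2.40 ± 0.43, adjusted p = 0.0098), which did not pass without BTBR (1.68, adjusted p = 0.611) or *Nav1* KO (2.32, 0.843). *Chat*, the acetylcholine-making enzyme of a Vip subtype, was at 8.67, 7.78 and 10.6 CPM, from 2, 2 and 5 counts.

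A few nuclei held much of the peptide RNA. The 3 Vip nuclei with the most *Vip* held 20.8%, 48.6% and 14.4% of its counts in C57BL/6J, *Nav1* KO and BTBR, and 1 *Nav1* KO nucleus held 331 of 1233. In *Nav1* KO the highest 3 nuclei of each gene held 75.0% of *Crh*, 57.3% of *Cck*, 63.1% of *Cxcl14* and 50.3% of *Tac2*. Ratios between libraries of genes with more than 4 counts in each are therefore also given without the 3 nuclei highest for the gene, a step added after seeing the data. They have no interval, and 3 nuclei are a larger part of the 95 and 87 members than of the 168 in BTBR.

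*Nav1* KO over C57BL/6J, the comparison the series was made for, had 286 of 4546 genes past 2-fold higher (6.29%) and 436 lower (9.59%) in Vip nuclei, of which 153 and 259 had an interval that excluded 1, and the median ratio was 0.911. *Nav1* itself was at 317, 284 and 146 CPM in Vip nuclei of C57BL/6J, *Nav1* KO and BTBR, and at 345, 264 and 146 CPM over all nuclei. The assay counts 3′ ends, outside the deleted part, so this does not check the knockout. *Cck* was 1.61-fold higher (1.36 to 1.90), but 1.12-fold without the 3 nuclei. *Crh* had a ratio of 1.46 (1.09 to 1.97) and of 0.600 without them, so its direction rested on 3 nuclei. *Cnr1* went from 1.26 (1.04 to 1.53) to 0.999. *Cxcl14* was lower in both, at 0.689 (0.528 to 0.898) and 0.362, as was *Npy* at 0.530 and 0.510. *Penk* was lower too, at 0.488 (0.318 to 0.739) and 0.446, while *Scg2* was higher, at 2.01 (1.52 to 2.67) and 1.86. Of 12 genes of the peptide list that reached the minimum level, 1 was past 2-fold higher and 2 past 2-fold lower. An interval that excluded 1 was found for 3 above 1 and 3 below 1, and the share of all genes with such an interval, at any fold, was not counted. *Adarb2* was at 0.974 (0.844 to 1.13) and 0.864, and *Nav1* at 0.857 without the 3 nuclei.

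The highest ratios of *Nav1* KO over C57BL/6J were led by genes with few counts in C57BL/6J. *Shisa8* had 42 counts against 3 (12.6, 4.01 to 63.3), *Pax6* 28 against 1 (25.1, 4.15 to 1027) and *Lgr5* 28 against 2 (12.6, 3.17 to 109). With 2 or more *Vip* UMIs *Shisa8* had 32 against 3 (7.92, 2.48 to 40.4), *Pax6* 18 against 1 (13.4, 2.11 to 557) and *Lgr5* 6 against 1 (4.45, 0.540 to 205). With *Adarb2* required *Pax6* had 10 against 1 (11.1, 1.57 to 480) and *Lgr5* 6 against 2 (3.32, 0.593 to 33.6), so that the interval of *Lgr5* held 1 under both rules. These genes were not high in *Nav1* KO alone. In BTBR over C57BL/6J, with all members, *Shisa8* had 33 against 3 (5.36, 1.68 to 27.3). There *Pax6* had 38 against 1 (18.5, 3.13 to 750) and *Lgr5* 24 against 2 (5.85, 1.45 to 51.0). *Ptgds*, a prostaglandin synthase of glia and meninges, was at 213, 1291 and 475 CPM in the 3 libraries. Its *Nav1* KO ratio was 6.08 (4.49 to 8.38), and 5.31 without the 3 nuclei. *Apod*, apolipoprotein D, was at 26.0, 206 and 76.0 CPM, with a *Nav1* KO ratio of 7.92 (3.41 to 22.6), or 4.64 with 2 *Vip* UMIs. Without the 3 nuclei the *Apod* ratio was 15.0, but in C57BL/6J those nuclei held 4 of its 6 counts. Excitatory nuclei showed the same order, with *Ptgds* at 87.5, 297 and 184 CPM and *Apod* at 17.6, 53.0 and 21.6 CPM. The part of free RNA in these ratios was not tested. Among the lowest were *Zfyve28*, with 3 counts against 19 (0.142, 0.0268 to 0.481), and *Rmnd5b*, with 3 against 18 (0.149, 0.0282 to 0.512). With 2 *Vip* UMIs *Zfyve28* had 2 against 5 (0.297, 0.0283 to 1.81).

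BTBR over C57BL/6J had 274 of 4530 genes past 2-fold higher (6.05%) and 255 lower (5.63%), of which 185 and 202 had an interval that excluded 1. Of 11 genes of the peptide list that reached the minimum level, 0 were past 2-fold higher and 2 past 2-fold lower. An interval that excluded 1 was found for 5 below 1 and 0 above 1. The share of all genes with such an interval, at any fold, was not counted, so these 2 numbers have no background. *Crh* had a ratio of 0.436 (0.310 to 0.613) and of 0.493 without the 3 nuclei, *Npy* of 0.324 (0.245 to 0.425) and 0.242, and *Penk* of 0.537 (0.382 to 0.757) and 0.610. *Vgf* was at 0.630 (0.461 to 0.863) and 0.588. *Cck* was at 0.834 (0.706 to 0.989), and 0.908 without them. With 2 *Vip* UMIs *Npy* was at 0.106, *Cck* at 0.619, *Vgf* at 0.443 and *Scg2* at 0.722. *Tac2* was at 0.999 (0.813 to 1.23), and 1.25 without the 3 nuclei, *Scg2* at 1.03 (0.780 to 1.38) and 1.11, *Chga* at 1.37 (0.883 to 2.20) and 1.59, and *Chgb* at 1.13 (0.775 to 1.67) and 1.22. The chemokine gene *Cxcl14* had a ratio of 0.371 (0.284 to 0.483) and of 0.395 without the 3 nuclei. *Nav1* had a ratio of 0.460 (0.326 to 0.649) and 0.495. *Junb*, an immediate early gene, was higher, with 39.0 and 137 CPM (3.52, 1.74 to 8.04, 5.01 without the 3 nuclei and 6.15 with 2 *Vip* UMIs), and excitatory nuclei had 51.9 and 147 CPM. In C57BL/6J the 3 nuclei held 4 of the 9 *Junb* counts. *Igf1* was at 0.604 (0.409 to 0.895) and 0.668 without the 3 nuclei, and *Adarb2* at 1.20 (1.06 to 1.36) and 1.22, the latter 1.04 with 2 *Vip* UMIs. *Sav1* had 90 counts against 2 (21.9, 5.89 to 184), and 62 against 2 with 2 *Vip* UMIs (13.3, 3.53 to 112). *Lsm4* had 66 against 2 (16.1, 4.28 to 136). *Gm17167* had 1 count against 42 (0.0116, 0.000287 to 0.0682), or 1 against 17 with 2 *Vip* UMIs (0.0252, 0.000604 to 0.161). *Gm12027* had none against 28, with an upper limit of 0.0686 for the ratio. *Rpl29* had 4 against 23 (0.0847, 0.0213 to 0.248). *Itpr3*, which the BTBR strain name marks as mutated, had 1, 1 and 0 counts in Vip nuclei and allowed no comparison. *Nnt*, known to be deleted in part in C57BL/6J, had 8, 3 and 14 counts.

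**Figure D5:**
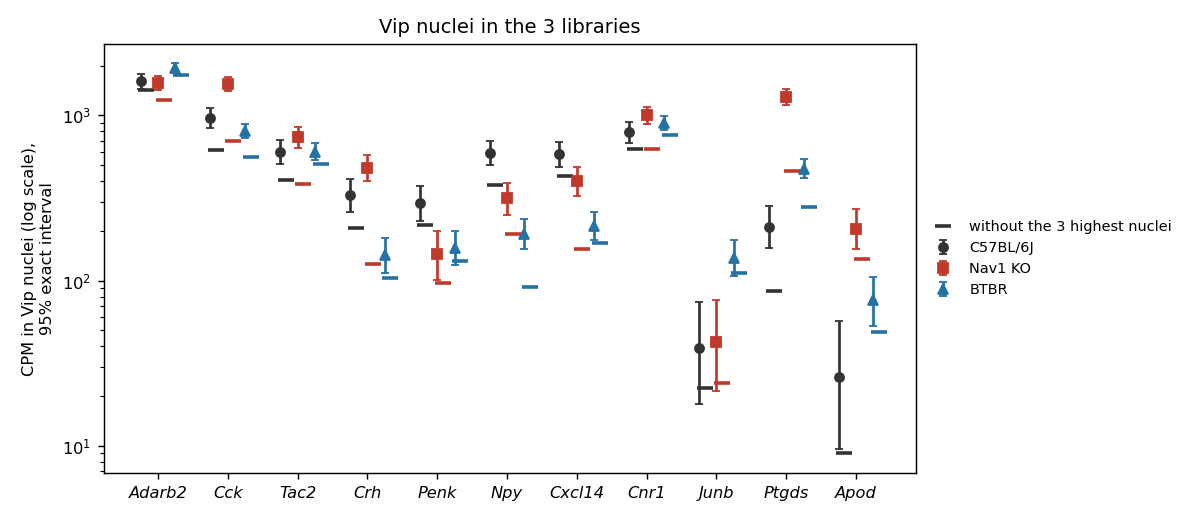
Level (CPM, log scale, exact 95% intervals) of 11 genes in Vip nuclei of each library, with a dash for the level without the 3 nuclei highest for the gene. The points of *Crh*, *Npy* and *Cxcl14* are lowest in BTBR, but the dash of *Cxcl14* is lowest in *Nav1* KO (155 against 169 CPM in BTBR). *Ptgds* is highest in *Nav1* KO at 1291 CPM, and the *Nav1* KO dashes of *Crh* and *Cck* lie well under their points.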

How the data were processed

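Nuclei of 3 pooled libraries were profiled by droplet 3′ snRNA-seq. The authors deposited filtered matrices of counts (UMIs per gene and nucleus, Cell Ranger 6.0.0, mm10, per the submitters' processing notes). The annotation release was not given in the sources used here. The files held 15402, 14623 and 15238 barcodes, of which 14630, 14056 and 14778 were kept (200 genes or more, mitochondrial counts under 10%). The study and the labels give 14630, 14056 and 15238. Kept counts were 38704723, 50965774 and 48948184. Of all barcodes, 61 to 71 were shared by a pair of libraries, and none among Vip nuclei. Doublets were not called, and leaving out the 5% of nuclei with the most UMIs was an alternative.

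The members and all gene lists were chosen with earlier results of these data known. Genes named are the 10 highest and 10 lowest of each comparison under the stated limits, members of the lists chosen for role and level, and genes that check the labels. Text names only some of the 10, and those singled out beyond the rule were chosen after their values were seen. An item of the lists is not reported here. The lists were Vip markers, Vip subtypes, caudal and medial eminence, Lamp5 and Sncg, Sst and Pvalb interneurons, GABA genes, peptides, receptors, channels, adhesion, activity-regulated, bulb, striatal, excitatory and glial or vascular genes. Shares of all genes higher and lower were 3.23% and 3.3% against Sst, 3.91% and 3.4% against Pvalb, and 1.35% and 0.534% against Adarb2 nuclei. Of 6 Pvalb genes 1 was higher and 1 lower against Sst nuclei and likewise against Adarb2 nuclei. Of 9 Lamp5 and Sncg genes 3 were higher and 3 lower against Sst nuclei, and 2 higher against Pvalb nuclei. Of 8 Sst genes 2 were higher and 1 lower against Pvalb nuclei, and 1 higher and 2 lower against Adarb2 nuclei.

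Counts summed per library and class gave 12 sums, fitted with edgeR 4.0.16 (glmQLFit, glmQLFTest, TMM, library as a block, gate genes left out, adjusted p threshold 0.05) in R 4.3.3. DESeq2 1.42.0 was an alternative. The libraries pair the classes because their nuclei come from the same pool. Ratios between libraries used genes with at least 50 CPM and 10 counts in 1 library, exact binomial intervals at 95% and a floor of 3 counts. Python 3.11.15, numpy 2.4.6, scipy 1.17.1, pandas 2.3.3 and matplotlib 3.10.9 were used. Gene positions are from GENCODE and promoters from RefSeq.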

Additional observations from a re-analysis of the deposited data

How the results depend on the processing

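Of 2245 repeats of single-gene results, 2058 were kept, 162 no longer passed, 24 moved and 1 reversed. That 1 was *Scn8a* over Pvalb nuclei, 0.24 with the Pvalb threshold raised by 1 UMI, and the cause was not tested. For class differences, kept meant the same direction and side of the threshold. A library ratio was kept when it stayed inside its main interval and counted as reversed only if past 2-fold, so a kept or moved ratio could cross 1. The 40 ratios without the 3 highest nuclei were counted apart, and 31 were kept and 9 moved. Ratios of *Nav1* KO that crossed 1 there were those of *Crh* (1.46 to 0.600), *Pnoc* (1.16 to 0.597) and *Tac2* (1.22 to 0.943). Those of *Vgf* (1.08 to 0.855) and *Cnr1* (1.26 to 0.999) did so too, as did *Tac2* in BTBR (0.999 to 1.25). The share of Vip nuclei in C57BL/6J, *Nav1* KO and BTBR was 0.362%, 0.384% and 0.650% with 2 *Vip* UMIs, 0.492%, 0.491% and 0.873% with *Slc17a7* at 0, 0.458%, 0.349% and 0.812% with *Adarb2* required, 0.441%, 0.406% and 0.702% thinned to 1000 UMIs, 0.178%, 0.221% and 0.365% thinned to 500, and 4.30%, 3.97% and 6.30% of nuclei with a GABA gene UMI. Without the library as a replicate block, genes higher and lower were 112 and 107 against Sst, 153 and 145 against Pvalb, 29 and 7 against Adarb2 nuclei, and 0 and 0 for *Calb2* over *Cck* nuclei. DESeq2 gave 148 and 117, 171 and 193, and 41 and 15. Leaving out 1 library gave 133 to 238 and 99 to 224 against Sst, 181 to 227 and 142 to 188 against Pvalb, and 44 to 83 and 16 to 49 against Adarb2 nuclei, each lowest without BTBR except the 181 without C57BL/6J. Called in the full fit and in all 3 of these were 93 of 284 and 86 of 290, 84 of 344 and 73 of 299, and 35 of 119 and 10 of 47 genes. With 2 *Vip* UMIs, 182 genes were lower against Sst and 248 and 112 differed against Adarb2 nuclei, where requiring *Adarb2* gave 197 higher. Raising the Pvalb threshold gave 219 and 52. For *Calb2* over *Cck* nuclei, genes higher were 3 with *Adarb2* required or *Sst* at 0, 2 with relative log expression scaling, 0 with *Slc17a7* at 0, 2 *Vip* UMIs, no filter or the deepest 5% left out, and 0 to 2 without 1 library, and genes lower were 1 with no filter and 0 to 2 without 1 library. Past 2-fold in *Nav1* KO, 68 and 116 genes remained with at least 100 CPM, 770 and 1007 with no CPM minimum, 153 and 259 with an interval excluding 1, and 443 higher with *Slc17a7* at 0. In BTBR these were 72 and 69, 683 and 806, and 490 higher with 2 *Vip* UMIs. No paired analysis was possible between libraries because each group has 1 library.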
